A study of Homo sapiens with 6 samples.

Results

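The mitochondrial ribosomal protein genes, MRPL for the large subunit and MRPS for the small one, were read here from junction reads of cells in which the splicing factor SFSWAP was depleted. The members are the rows of the retained intron and skipped exon tables whose gene symbol is MRPL or MRPS followed by a number (with or without a letter A to C), with a mean of at least 20 inclusion plus skipping reads per library. This gave 57 of 12867 retained introns and 471 of 101163 skipped exon rows with that many reads, in 69 of 9977 genes, of which 43 were MRPL and 26 were MRPS genes. Just outside the minimum lay an MRPS7 intron with a mean of 17.0 reads and an MRPL48 exon row with 18.7 reads, and just inside lay an MRPL55 intron and another MRPL48 exon row with 20 reads each.

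All cells were HEK293A-TOA, a human embryonic kidney line, grown without inhibitor. The siSFSWAP group (n = 3) received a mixture of siRNAs against SFSWAP at 40 nM, and the siNT group (n = 3) received a non-target siRNA. RNA was collected on day 5, polyadenylated RNA was sequenced as single-end reads, and the 3 samples of each group are labelled as biological replicates. The comparison thus asks what depletion of SFSWAP, a nuclear SR-related protein that regulates alternative splicing, does to inclusion in one cell line, and markers of the line's identity were not checked here. SFSWAP itself had 34.7, 34.6 and 21.3 counts of junction reads per 1000000 (CPM, defined below) in the siSFSWAP libraries, against 79.7, 86.5 and 80.2 CPM in the siNT libraries, a log2 difference of -1.46 (SE 0.16, limma-trend adjusted p = 0.000353), which also served as the check that the groups were named correctly. The junction reads per library ranged from 2767079 to 4450930 in siSFSWAP and from 2827762 to 7465949 in siNT for retained introns, and from 19515010 to 31980079 in siSFSWAP and from 20820210 to 55274283 in siNT for skipped exons. The siNT library with the most reads, called a here, stood apart from the other siNT libraries in several of the values below.

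Mitoribosomes translate the few messenger RNAs encoded by mitochondrial DNA, all of which specify subunits of the respiratory chain and the ATP synthase. Their RNA comes from the mitochondrial genome, but every protein in them is encoded in the nucleus, transcribed and spliced there, made on cytosolic ribosomes and imported. Some of these proteins descend from bacterial ribosomal proteins and others occur only in mitochondria, and loss of single members can impair oxidative phosphorylation.

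The events on which the results turn are shown first, in GRCh38 sequence read 5′ to 3′ on the gene's strand, because each places a measured junction in its splice site context. For introns the first and the last 6 intron bases are in capitals, with 9 exon bases on each side. For exons the exon is in capitals, after 30 bases of the intron before it and before 10 bases of the intron after it.
MRPS18A intron 4, chr6:43675263-43675502, minus strand: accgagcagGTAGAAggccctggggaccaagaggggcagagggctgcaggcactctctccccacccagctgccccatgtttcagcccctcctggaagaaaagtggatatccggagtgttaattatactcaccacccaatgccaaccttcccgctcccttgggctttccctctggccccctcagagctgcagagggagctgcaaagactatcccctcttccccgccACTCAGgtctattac
MRPL4 intron 7, chr19:10258514-10258617, plus strand: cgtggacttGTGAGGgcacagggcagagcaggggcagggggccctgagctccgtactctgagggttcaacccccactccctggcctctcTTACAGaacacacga
MRPL53 intron 1, chr2:74472462-74472577, minus strand: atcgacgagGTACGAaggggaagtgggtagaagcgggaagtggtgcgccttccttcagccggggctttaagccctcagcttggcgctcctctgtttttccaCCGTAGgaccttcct
MRPS18C exon 3, chr4:83458316-83458439, plus strand: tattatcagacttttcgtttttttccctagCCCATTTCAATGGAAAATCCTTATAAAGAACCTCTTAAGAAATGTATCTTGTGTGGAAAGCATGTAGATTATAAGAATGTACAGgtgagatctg
MRPL22 exon 3, chr5:154950791-154950948, plus strand: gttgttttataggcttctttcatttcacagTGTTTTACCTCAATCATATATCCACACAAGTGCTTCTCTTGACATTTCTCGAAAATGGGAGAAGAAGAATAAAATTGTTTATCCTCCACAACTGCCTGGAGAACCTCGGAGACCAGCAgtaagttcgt
MRPS18A exon 5, chr6:43675192-43675301, minus strand: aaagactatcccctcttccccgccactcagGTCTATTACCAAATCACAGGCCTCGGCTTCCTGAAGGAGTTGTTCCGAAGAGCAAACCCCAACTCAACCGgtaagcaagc
MRPS11 exon 5, chr15:88476959-88477064, plus strand: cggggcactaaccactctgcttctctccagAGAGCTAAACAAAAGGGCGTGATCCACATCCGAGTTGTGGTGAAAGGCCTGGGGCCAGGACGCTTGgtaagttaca
Exon and intron numbers are those of the MANE Select transcript in GENCODE release 44. In the MRPS18C sequence the intron bases before the exon also hold the ag that ends an upstream 3′ splice site, from which a 105-nt form of the exon starts.

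Of the 57 introns, 39 in 20 genes could be tested. The other 18 had fewer than 5 spliced reads over the 6 libraries and were almost wholly retained, with mean inclusion of 94.8% to 100% in siSFSWAP and 92.2% to 100% in siNT. The tested introns were mostly spliced. Mean inclusion of the 39 ranged from 0.0% to 100% with a median of 6.45% in siSFSWAP and from 0.262% to 98.4% with a median of 7.06% in siNT. The tested introns had a median length of 122.0 nt and a median GC content of 55.1%, against 161.0 nt and 55.4% over all 10155 tested introns.

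Depletion of SFSWAP was accompanied by lower retention of a single member intron past both thresholds, intron 4 of MRPS18A, and by smaller decreases in MRPL4 and MRPL53. By a quasi-binomial F test with Benjamini-Hochberg adjustment over all tested introns, 1 of 39 members was called lower (adjusted p of at most 0.05 and a change of at least 20 percentage points), where the background was 1.61% of all introns, and 0 were called higher, where it was 0.148%. Past the adjusted p alone were 3 members lower (background 2.86%) and 0 higher (background 0.364%). The 3 libraries of each group did not overlap for 8 members with lower values in siSFSWAP (background 15.3%) and for 5 with higher values (background 6.04%). Mean inclusion was lower in 23 of 39 members (background 61.2%), and the median change was -0.31 percentage points, against -0.52 over all tested introns.

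MRPS18A is a mitochondrial paralogue of bacterial ribosomal protein S18 that, despite its symbol, sits in the large subunit. Its intron 4 of 5 (chromosome 6, 43675272 to 43675493, 222 nt) had inclusion of 5.33%, 10.6% and 9.66% in the siSFSWAP libraries, against 22.9%, 37.6% and 40.9% in the siNT libraries, each in the order a, b, c used throughout. The groups did not overlap, and siNT library a lay closest to the siSFSWAP libraries. The mean fell to 8.54 ± 2.82% in siSFSWAP, against 33.8 ± 9.60% in siNT (SD, n = 3 each), a change of -25.3 points (quasi-binomial adjusted p = 0.00194). Both forms differed without overlap. In reads per 1000000 junction reads of the table (RPM), retained reads were 8.78 ± 2.78 in siSFSWAP and 34.4 ± 14.1 in siNT, while spliced reads were 47.2 ± 2.34 RPM in siSFSWAP and 32.3 ± 1.65 RPM in siNT. Read from the sequence alone, the intron keeps the reading frame and holds no stop, so that the annotated 196 codons would become 270. The call was lost without siSFSWAP library a (adjusted p = 0.0640) and in a limma test on the log2 odds of inclusion (adjusted p = 0.135).

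MRPL4, the homologue of a bacterial large subunit protein that lines the exit tunnel for the growing chain, showed a smaller decrease at intron 7 of 8 (chromosome 19, 10258523 to 10258608, 86 nt). Inclusion was 9.43%, 12.5% and 8.12% in siSFSWAP, against 14.6%, 25.6% and 33.0% in siNT. The 2 groups had no values in common, and siNT library a was again the lowest of its group. The change was -14.4 points (adjusted p = 0.0398), with 14.3 ± 2.94 retained RPM in siSFSWAP and 52.7 ± 26.3 in siNT, and with 69.0 ± 4.07 spliced RPM in siSFSWAP and 82.7 ± 7.34 in siNT. Both forms of the junction thus had lower means, the retained form by more. Retention would shift the frame and end it after 221 of 311 codons, 159 nt before the last exon junction. A non-coding gene, LIMASI, overlaps on the other strand, and the strand setting of the counting was not given in the sources used here.

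MRPL53, a large subunit protein found only in mitochondria, had inclusion of intron 1 of 2 (chromosome 2, 74472471 to 74472568, 98 nt) of 12%, 11% and 6.77% in siSFSWAP, against 18.4%, 26.7% and 21.7% in siNT. All siSFSWAP libraries lay below all siNT libraries. The change was -12.4 points (adjusted p = 0.0455), with 4.73 ± 0.819 retained RPM in siSFSWAP and 12.2 ± 3.89 in siNT, whereas spliced reads overlapped at 22.2 ± 4.13 RPM in siSFSWAP and 21.2 ± 5.04 in siNT. Retention would end the frame after 50 of 112 codons. CCDC142 on the same strand and a non-coding gene on the other overlap the region. The MRPL4 decrease lost the adjusted p without siNT library b or any siSFSWAP library (at most 0.302), and the MRPL53 decrease without any library but siNT library a (at most 0.290).

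Other introns had values in both directions without passing the test. MRPS24, a small subunit protein, had inclusion of intron 1 of 35.6%, 33.5% and 21.7% in siSFSWAP, against 45.3%, 51.6% and 52.5% in siNT, and MRPS24 shares this region with the readthrough gene URGCP-MRPS24. These groups did not overlap, but the adjusted p was 0.158 at a mean of 64.8 reads. MRPL28 intron 3 (-1.70 points) and MRPL2 intron 4 (-1.21 points) were the other introns with lower values, at least 50 reads and no overlap. On the other side, MRPS5 intron 7 was included at 14.6%, 19.9% and 20.8% in siSFSWAP, against 13.9%, 12.6% and 13.8% in siNT (adjusted p = 0.279), and MRPL28 intron 4 differed by 0.31 points. MRPS22, singled out after its values were seen and with a mean of only 41.5 reads, had the largest positive difference: a 708-nt row starting at the 5′ splice site of intron 4 was included at 76.5%, 63.6% and 100% in siSFSWAP, against 52.8%, 48.0% and 44.4% in siNT (adjusted p = 0.0811). Leaving out siNT library a gave 2 of 35 members lower, MRPS18A and MRPS24, where 5.25% of all introns were called lower in that fit, and 1 higher, MRPS22 (0.464% of all introns). Leaving out siSFSWAP library a gave 0, with 7 of 38 members at an unadjusted p under 0.05 (11.2% of all introns).

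Summed over the 39 introns, retained reads were 263.3, 293.8 and 249.2 RPM in siSFSWAP, against 328.0, 411.9 and 458.3 in siNT. Spliced reads over the same introns were 2029.9, 1986.9 and 1953.2 RPM in siSFSWAP, against 2044.3, 2156.0 and 2079.7 in siNT. Neither sum overlapped between the groups, and the retained sum differed by the larger ratio. The retained sum includes the decreases of MRPS18A, MRPL4 and MRPL53 given above, so it does not describe the member introns in general. Mean inclusion was lower in 23 of 39 members, against 61.2% of all introns, and no such sum was made over all introns. Neither sum was tested.

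**Figure D1:**
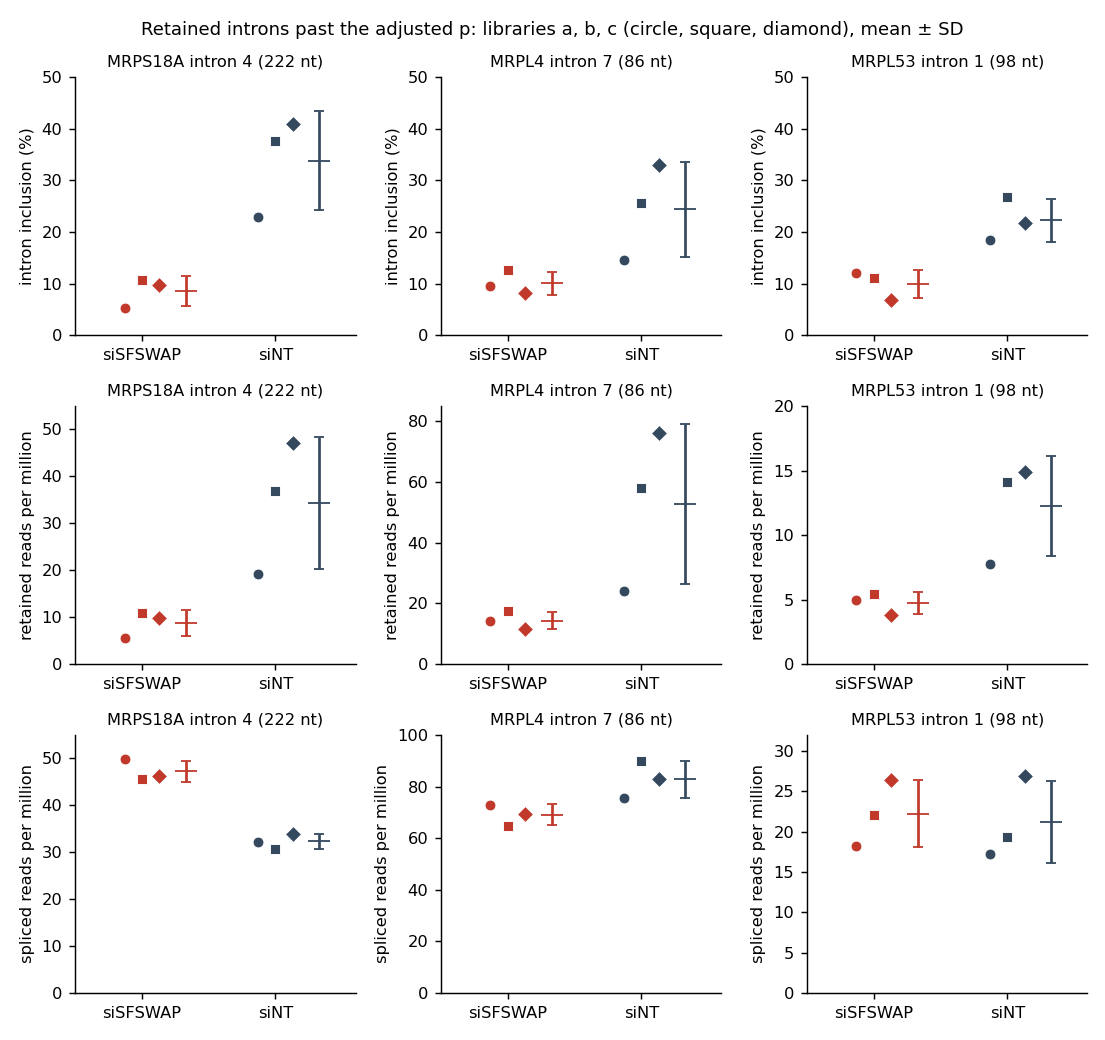
Each point is 1 library (circle a, square b, diamond c), with the mean ± SD beside the points, for intron inclusion in percent (top), retained reads in RPM (middle) and spliced reads in RPM (bottom). MRPS18A differed in both forms, with 8.78 retained RPM in siSFSWAP and 34.4 in siNT, whereas the spliced reads of MRPL53 overlapped.

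Most cassette exons of the members were included in nearly all reads of both groups. Of the 471 rows, 274 in 58 genes could be tested, 147 had fewer than 5 skipping reads and 50 fewer than 5 inclusion reads over the 6 libraries. The 274 rows lay on 232 distinct exons, had a median length of 107.0 nt against 121.0 nt over all 48100 tested rows, and had a median mean inclusion of 94.0% in siSFSWAP and 93.5% in siNT. Of the tested member rows, 29.6% had a length that is a multiple of 3, against 39.1% of all tested rows.

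The exons of 2 genes were called lower in siSFSWAP, MRPS18C and MRPL22, and those of 3 genes were called higher, MRPS18A, MRPL53 and MRPL43. By row, 6 of 274 were called lower (background 0.655%), which are forms of 2 exons, and 4 higher (background 1.44%), which are forms of 3 exons. Past the adjusted p alone were 14 rows lower (background 2.17%) and 6 higher (background 3.25%). The groups did not overlap for 28 rows with lower values (background 9.06%) and 20 with higher values (background 14.3%), and 122 of 274 rows had a lower mean (background 42.5%). Rows are not separate measurements where they describe an exon with another splice site and share its skipping reads. Without siNT library c there were 6 calls, 5 lower and 1 higher, against 0.593% and 0.762% of all rows. Without siSFSWAP library c there were 5 calls, 2 lower and 3 higher, against 0.297% and 0.609% of all rows. The calls higher were 1 without siNT library b or c, the 51-nt MRPS18A row, where 0.574% and 0.762% of all rows were called higher, and the limma test on log2 odds kept the 2 MRPS18C rows only.

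MRPS18C is the paralogue of bacterial S18 in the small subunit. Its exon 3 of 6 (chromosome 4, 83458346 to 83458429, 84 nt) was included at 44.7%, 34.0% and 31.5% in siSFSWAP libraries, against 81.8%, 86.7% and 82.7% in siNT libraries. Among all tested member rows only the 105-nt form of this exon had as large a change. The mean change was -47.0 points (quasi-binomial adjusted p = 3.8e-08), and over the fits without 1 library the adjusted p was at most 2.8e-05. Inclusion reads were 3.62 ± 0.726 RPM in siSFSWAP and 7.93 ± 1.69 in siNT, and reads that skip the exon were 3.37 ± 0.489 RPM in siSFSWAP and 0.817 ± 0.126 in siNT. Inclusion is counted over 2 junctions and skipping over 1, and in siSFSWAP both forms had similar RPM.

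The 105-nt form of the same exon, which starts 21 nt upstream and is in no GENCODE release 44 transcript, had inclusion of 31.4%, 20.8% and 19.1% in siSFSWAP, against 70.4%, 76.9% and 65.8% in siNT (-47.3 points, adjusted p = 2.79e-07). Its skipping reads are those of the 84-nt form. Another row of the 84-nt exon, with a later downstream exon, had inclusion of 85.2%, 83.0% and 84.4% in siSFSWAP, against 97.4%, 94.4% and 96.1% in siNT (-11.8 points, adjusted p = 0.111). Loss of the 84 nt keeps the frame and would leave 114 of 142 codons. The exon has a GC content of 32.1%, against a median of 49.0% for tested member exon rows and 50.4% for all tested rows. ABRAXAS1 overlaps the region on the other strand.

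MRPL22, a large subunit protein whose bacterial homologue also lines the exit tunnel, lost inclusion of exon 3 of 7 (chromosome 5, 154950821 to 154950938, 118 nt). Inclusion was 56.1%, 61.1% and 50.7% in siSFSWAP, against 79.2%, 72.0% and 77.0% in siNT. All siSFSWAP libraries lay below all siNT libraries. The change was -20.1 points (adjusted p = 0.000499), with 6.41 ± 1.15 inclusion RPM in siSFSWAP and 10.3 ± 1.31 in siNT, and with 2.51 ± 0.404 skipping RPM in siSFSWAP and 1.64 ± 0.467 in siNT. The adjusted p stayed at 0.0233 or below when any library was left out, although the change was under 20 points without siNT library a, siNT library c or siSFSWAP library c, at its smallest -17.4 points. The test on log2 odds gave an adjusted p of 0.190.

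Further rows of the same MRPL22 exon began at other 3′ splice sites and gave forms of 136, 246 and 269 nt, with changes of -22.1, -22.2 and -22.1 points (adjusted p = 0.000416, 0.000407 and 0.000419). They had the same skipping reads and nearly the same inclusion reads, and they are counted here as the same change. Forms of 122 and 126 nt that end at later 5′ splice sites had inclusion of 19.8%, 29.9% and 20% in siSFSWAP, against 46.7%, 27.9% and 47.0% in siNT, where siNT library b lay within the siSFSWAP range (-17.3 points, adjusted p = 0.0114). Skipping of the 118 nt would shift the frame and end it after 34 of 206 codons, 186 nt before the last exon junction, a position at which transcripts are often subject to nonsense-mediated decay.

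In MRPS18A the exon next to the retained intron was included more often. Exon 5 of 6 (chromosome 6, 43675202 to 43675271, 70 nt) had inclusion of 96.6%, 92.9% and 95.1% in siSFSWAP, against 82.5%, 69.0% and 69.4% in siNT. Every siSFSWAP library was higher than every siNT library, and the change was 21.2 points (adjusted p = 0.000206). Its skipping reads were 0.349 ± 0.150 RPM in siSFSWAP and 1.77 ± 0.686 in siNT, and its inclusion reads were 10.8 ± 0.574 RPM in siSFSWAP and 8.19 ± 0.670 in siNT. A 51-nt form that begins further into the exon changed by 30.3 points (adjusted p = 0.000471). Both rows kept an adjusted p of at most 0.0322 when any library was left out, but the change of the 70-nt exon was under 20 points without siNT library b or c (18.9 and 19.1 points), so that its call was lost there. RSPH9 overlaps both rows on the other strand. The junction from exon 4 to exon 5 counts as spliced in the intron row and as inclusion in the exon row, so the intron and the exon result share reads. Skipping of the exon would shift the frame, after which 127 of 196 codons would remain.

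MRPL53 showed the same pair of an intron and its neighbouring exon. Here too the intron and the exon result share reads, those of the junction from exon 1 to exon 2. Exon 2 of 3, of 113 nt, was included at 99.1%, 100% and 97.9% in siSFSWAP, against 94.9%, 89.9% and 90.3% in siNT (7.29 points, adjusted p = 0.0457). A 70-nt form of it, ending at an earlier 5′ splice site, had inclusion of 94.3%, 100% and 91.6% in siSFSWAP, against 78.9%, 60% and 66.1% in siNT (26.9 points, adjusted p = 0.0397). Both rest on the same few skipping reads, 1, 0 and 2 in siSFSWAP and 8, 9 and 9 in siNT, and both lost the adjusted p without any library but siNT library a, reaching 0.185 and 0.174.

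MRPL43, a large subunit protein found only in mitochondria, had a 305-nt exon (chromosome 10, 100986268 to 100986572) that no annotated transcript holds in this form. It was included at 83.7%, 90.2% and 62.2% in siSFSWAP, against 49.3%, 44.4% and 38.9% in siNT. Every siSFSWAP library was higher at a mean of 34.7 reads, and the change was 34.5 points (adjusted p = 0.0258), which was lost without siNT library b or c or siSFSWAP library a or b (at most 0.154). SEMA4G on the other strand and a non-coding gene on the same strand overlap this region, so the reads cannot be given to MRPL43 with certainty.

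Smaller changes passed the adjusted p in 7 genes, of which MRPL22 and MRPL53 are given above. MRPS11, a small subunit protein with a bacterial homologue, had exon 5 of 6 (66 nt) included at 96.8%, 94.7% and 88.3% in siSFSWAP, against 99.7%, 100% and 99.4% in siNT (-6.42 points, adjusted p = 0.00848), and a 108-nt form with an upstream 3′ splice site at 89.7%, 85.7% and 69.9% in siSFSWAP, against 99.0%, 100% and 98.3% in siNT (-17.3 points, adjusted p = 0.0045). These groups did not overlap, and the skipping reads were 4, 5 and 11 in siSFSWAP and 1, 0 and 1 in siNT. Genes without a symbol in the annotation overlap this exon on the other strand. MRPL21 exon 5 (53 nt) changed by -3.97 points (adjusted p = 0.0413) and its 134-nt form by -14.8 points (adjusted p = 0.0490). In both forms siSFSWAP library c, with 12 skipping reads against 3 in each other siSFSWAP library, had the lowest inclusion, and without it the adjusted p was 0.333 and 0.334; it was also lost without siNT library b or c or siSFSWAP library b.

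MRPL17 exon 2 (69 nt) had inclusion of 96.8%, 90.6% and 87.8% in siSFSWAP, against 99.3%, 98.2% and 95.7% in siNT (-5.99 points, adjusted p = 0.0282), with overlapping groups. In MRPL4 a 236-nt exon near the affected intron, in no annotated transcript, was rarely used and had inclusion of 2.21%, 1.59% and 1.03% in siSFSWAP, against 3.42%, 5.38% and 8.25% in siNT (-4.07 points, adjusted p = 0.0370). A 74-nt MRPS6 exon was included more often, at 13.3%, 11.2% and 14.8% in siSFSWAP, against 5.61%, 5.65% and 5.07% in siNT (7.69 points, adjusted p = 0.0247). The solute carrier gene SLC5A3 shares this region with MRPS6 on the same strand. Each of these smaller changes lost the adjusted p in at least 1 fit without a library: MRPS11 without siSFSWAP library c (0.122 and 0.0907) and the 66-nt form also without siNT library b, MRPL17 without siNT library a or b or siSFSWAP library b or c (at most 0.236), and MRPL4 (at most 0.185) and MRPS6 (at most 0.123) in 5 of the 6 fits, all but the fit without siNT library a.

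Just outside the threshold lay exon 3 of 4 of MRPL33, a large subunit protein whose exon is known to be alternatively spliced. Of 2 rows of the 107-nt exon, 1 differed by -10.5 points (adjusted p = 0.0545), and a 125-nt form had inclusion of 45.4%, 40.6% and 45.8% in siSFSWAP, against 52.4%, 54.5% and 59.0% in siNT (-11.4 points, adjusted p = 0.0526). Over the fits without 1 library, the adjusted p of the 125-nt form ranged from 0.0104, without siNT library a, to 0.219. A MRPS34 exon of 126 nt (-3.98 points) and a MRPL52 exon of 74 nt (-3.61 points) had lower values with no overlap, at adjusted p of 0.0695 and 0.0954. Higher values with no overlap and no pass were seen in MRPL48 (4.57 points), MRPS28 (3.98 points), MRPL55 (1.87 points), MRPL20 (1.06 points) and MRPS35 (0.805 points).

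**Figure D2:**
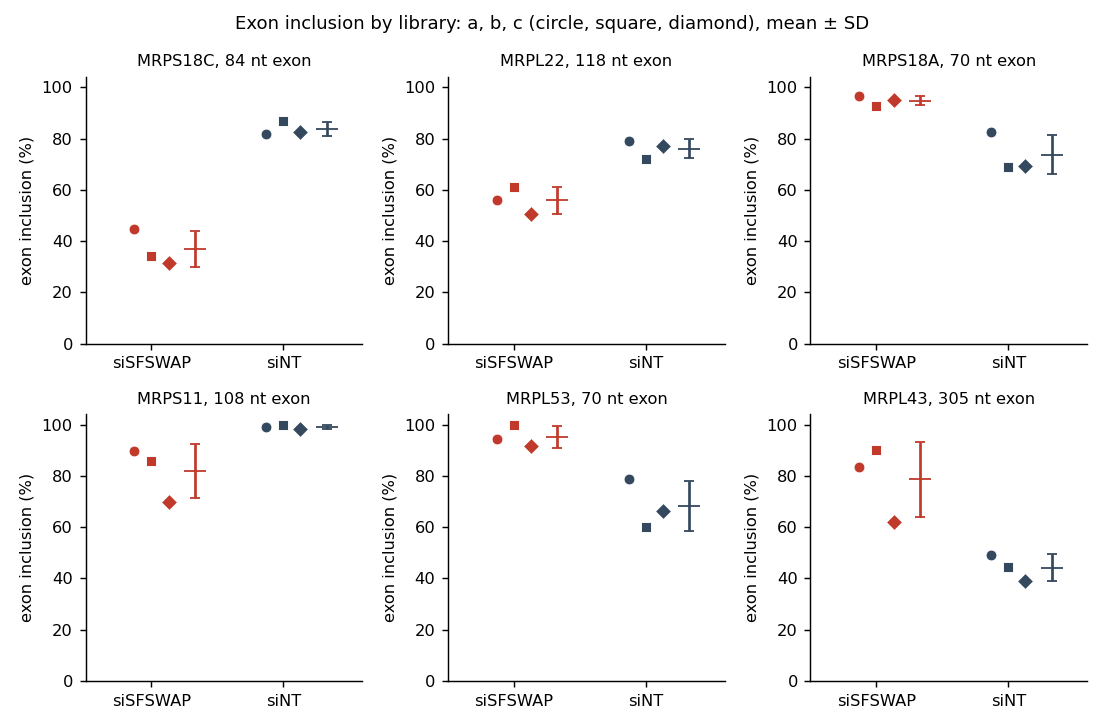
Exon inclusion in percent for 6 member exons, 1 point per library (circle a, square b, diamond c) with the mean ± SD beside the points. MRPS18C averaged 36.7% in siSFSWAP and 83.8% in siNT, MRPL22 and MRPS11 were also lower in siSFSWAP, and MRPS18A, MRPL53 and MRPL43 were higher.

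The spliced reads of the member genes were lower in siSFSWAP more often than higher. For each gene the junction reads of its skipped exon rows were added up, taking for each exon the row with the most reads, and scaled to 1000000 over all genes of the library (CPM). These sums depend both on splicing and on RNA amount, count a junction shared by neighbouring exons more than once, and are not gene expression, so they are compared between groups and not between genes. In these bulk samples a change in all cells and a change in only some of them cannot be told apart. With rows of any depth summed, 70 members entered the fit.

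By limma-trend on log2(CPM + 0.5), with adjustment over 10780 genes, 21 of 70 members were lower at an adjusted p of at most 0.05 (background 15.6%) and 0 were higher (background 14.7%). The groups did not overlap for 27 members with lower values (background 23.2%) and 5 with higher values (background 21.8%). A lower mean was found in 53 of 70 members (background 50.5%), and the median log2 difference was -0.16, against -0.0047 over all genes. At an unadjusted p under 0.05 there were 27 of 70 members, or 38.6%, below the 42.5% of all genes. By symbol, 13 of 43 MRPL genes and 8 of 27 MRPS genes were lower, with median log2 differences of -0.18 and -0.14. MRPS18A and MRPS30 carry small subunit symbols, although their proteins are large subunit components.

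Library a of siNT was the lowest siNT library in 20 of the 21 members that were lower, and so lay nearest to the siSFSWAP libraries. Over all 1683 genes called lower this was so in 77.8%. The members' counts moved together with those of all genes when a library was left out. Without siNT library a, 28 members were lower (24.4% of all genes) and 2 higher, MRPS34 and MRPL1 (23.2% of all genes). Without siNT library b or c, 8 and 11 members were lower (8.22% and 9.13% of all genes). Without siSFSWAP library a, b or c, 13, 10 and 7 were lower (11%, 8.84% and 8.80% of all genes). In these 5 fits 0 members were higher, against 8.31% to 10.2% of all genes. Only MRPS11, MRPL46, MRPL32, MRPL52, MRPS30 and MRPL13 were lower in each of these 6 fits. Of the 21 genes, 6 were called in only 1 of these fits. Neither count was made over all genes, so whether the members were more or less stable than other genes is not known.

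The lowest ratios were those of neighbouring genes. MRPS11 had 49.5, 47.7 and 45.1 CPM in siSFSWAP, against 68.6, 85.1 and 84.8 CPM in siNT, a log2 difference of -0.73 (SE 0.11, adjusted p = 0.000945). MRPL46, a large subunit protein found only in mitochondria, had 27.7, 28.9 and 27.2 CPM in siSFSWAP, against 34.4, 54.9 and 49.9 CPM in siNT, a log2 difference of -0.70 (SE 0.15, adjusted p = 0.00637). Neither gene's groups overlapped. The pair lies head to head on chromosome 15, MRPL46 from 88459477 to 88467390 on the minus strand and MRPS11 from 88467453 to 88480776 on the plus strand in GENCODE, with 62 bases between them, an arrangement that was looked up after the values were seen.

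The 62 bases that separate the 2 genes are shown because the genes run away from them on both sides. They were read from the RefSeq promoter of MRPL46 (GRCh38.p14, chr15:88467391-88467452, minus strand).
MRPL46 and MRPS11, bases between: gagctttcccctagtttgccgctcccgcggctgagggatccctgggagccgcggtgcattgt
No mark or factor was measured on them here.

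MRPL32, a large subunit protein that is processed by a mitochondrial protease before it is assembled, had 26.1, 21.2 and 25.5 CPM in siSFSWAP, against 31.6, 40.7 and 38.2 CPM in siNT (log2 -0.59, SE 0.13, adjusted p = 0.00651). MRPL52, found only in mitochondria, had 58.9, 57.3 and 56.7 CPM in siSFSWAP, against 70.2, 88.0 and 94.5 CPM in siNT (log2 -0.53, SE 0.11, adjusted p = 0.00543). MRPS30 averaged 38.1 ± 1.73 CPM in siSFSWAP and 54.4 ± 7.49 CPM in siNT (log2 -0.50, adjusted p = 0.00799). The groups did not overlap in any of the 3.

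Among the other genes that fell were MRPL20, MRPL37, MRPL13, MRPS9, MRPL21, MRPL12 (the stalk protein to which translation factors bind), MRPL11, MRPS35, MRPL39, MRPS15, MRPL58 (a peptidyl-tRNA hydrolase built into the large subunit), MRPS18B, MRPS31, MRPS23, MRPL33 and MRPL47. Their log2 differences lay between -0.46 in MRPL20 and -0.29 in MRPL47, and their adjusted p between 0.0062 and 0.0482. The groups of all 21 genes did not overlap. In siSFSWAP the 70 genes together had 3989.2, 4020.4 and 3826.7 CPM, against 4188.3, 4687.3 and 4620.8 CPM in siNT, a description without a test. This sum includes the 21 genes and weighs genes with many exon rows more, so it does not describe the members in general.

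At the other end no gene passed in the main fit. MRPS34 passed where each gene was read from its single row with the most reads (log2 0.35, adjusted p = 0.0176). That setting called 17 of 69 members lower and 1 higher. Of all 9845 genes tested in it, 1286 were lower and 1181 higher. MRPS34, a small subunit protein found only in mitochondria, had 53.5, 51.2 and 49.8 CPM in siSFSWAP, against 43.5, 47.0 and 39.2 CPM in siNT (log2 0.25, SE 0.10, adjusted p = 0.0781). MRPL43 had 62.6, 71.3 and 63.2 CPM in siSFSWAP, against 51.7, 56.3 and 59.2 CPM in siNT (log2 0.23, SE 0.10, adjusted p = 0.0910). In both genes the groups did not overlap. MRPL1, MRPS14 and MRPL55 followed with log2 differences of 0.20, 0.17 and 0.16 and overlapping groups.

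The genes with called events were not those with the lowest spliced reads. MRPS18C had 28.4, 27.1 and 28.3 CPM in siSFSWAP, against 29.0, 40.8 and 35.5 CPM in siNT (log2 -0.31, SE 0.13, adjusted p = 0.0835), and MRPL22 averaged 89.6 ± 11.2 CPM in siSFSWAP and 105.5 ± 14.5 CPM in siNT (log2 -0.23, adjusted p = 0.161). MRPS18A (log2 -0.10, adjusted p = 0.535) and MRPL53 (log2 0.06, adjusted p = 0.831) lay near 0. So did MRPL4 (log2 -0.06, adjusted p = 0.513), which had events past the adjusted p but none called. MRPL43, which also had a called exon row, was among the highest (log2 0.23, adjusted p = 0.0910). Since inclusion gives 2 junctions and skipping 1, the sum also depends on exon use. MRPL21 and MRPS11 were the genes that had both an event past the adjusted p and lower spliced reads.

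**Figure D3:**
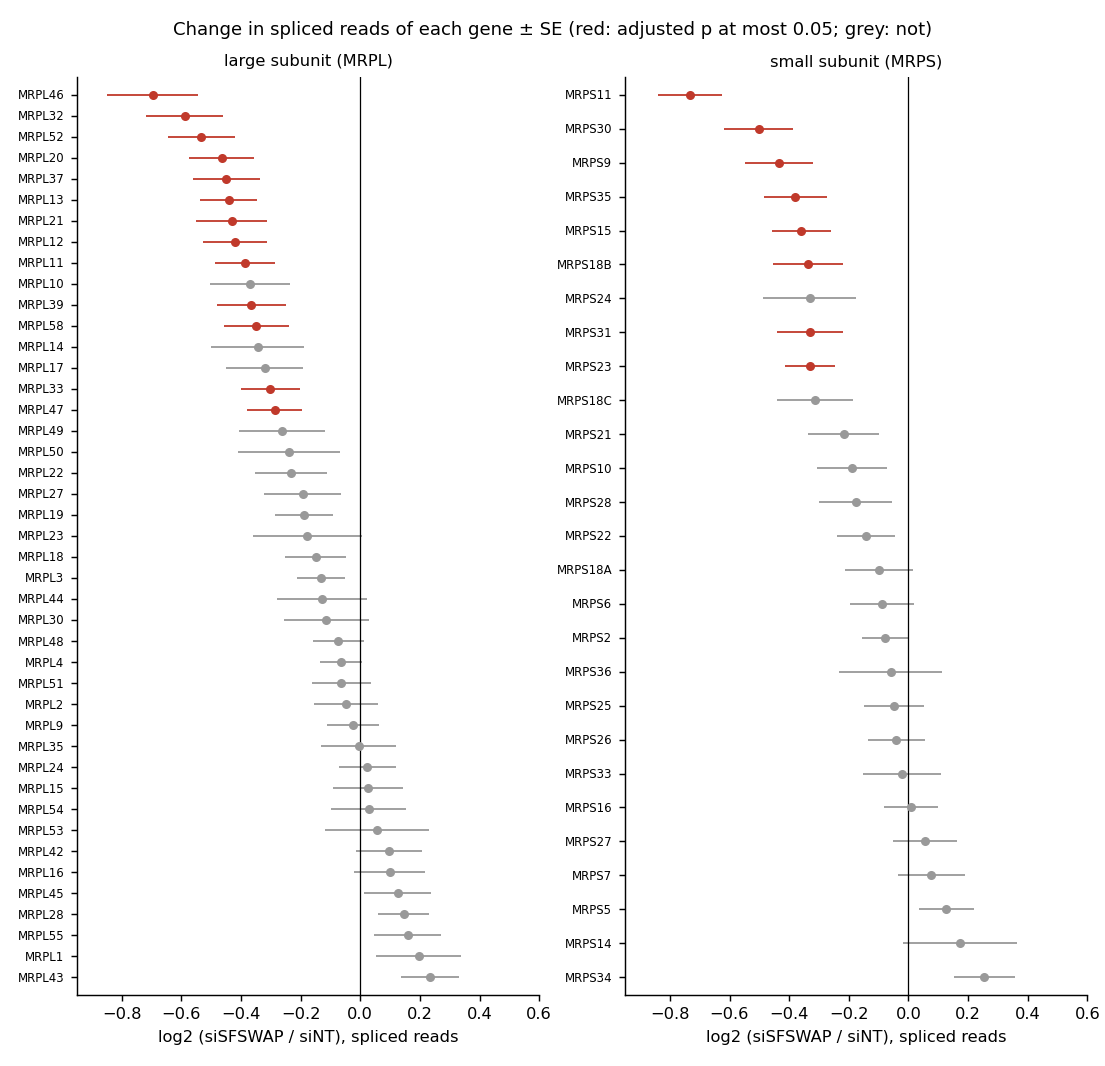
Log2 difference in spliced reads, siSFSWAP over siNT, with its SE, for each of the 70 tested member genes (43 MRPL left, 27 MRPS right). The 21 genes past the adjusted p are red and all lie left of 0, from MRPS11 at -0.73 to MRPL47 at -0.29.

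**Figure D4:**
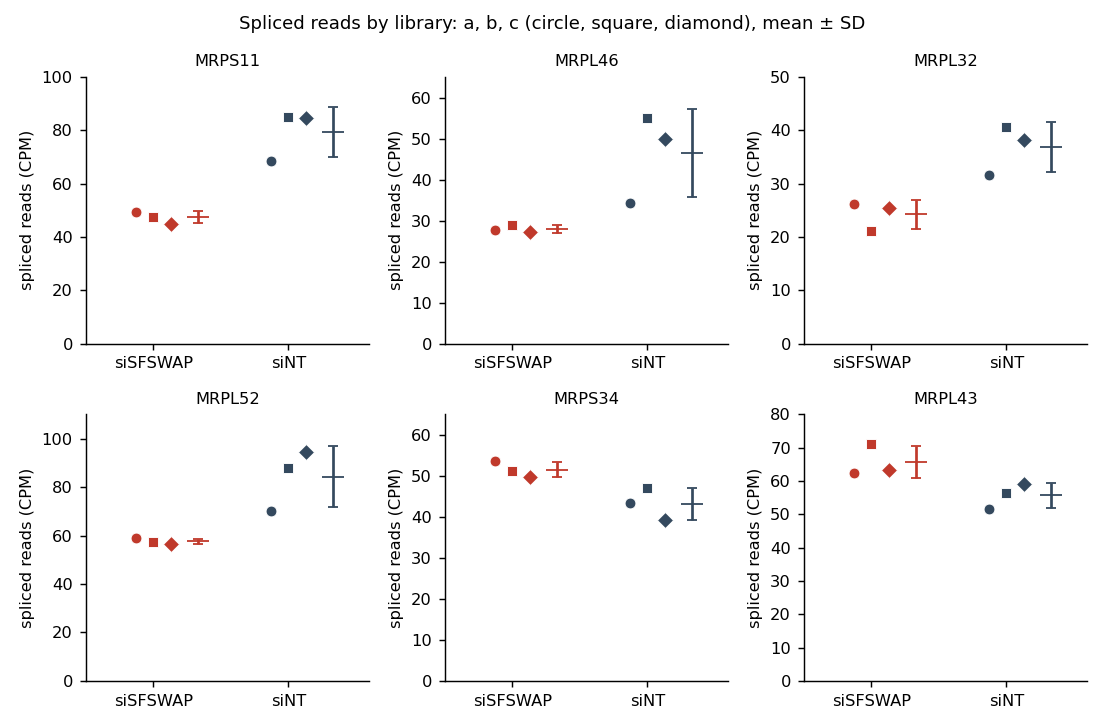
Spliced reads in CPM by library (circle a, square b, diamond c) with the mean ± SD, for the 4 member genes with the lowest ratios and the 2 with the highest. siNT library a is the lowest siNT library in MRPS11, MRPL46, MRPL32 and MRPL52, and the groups do not overlap in any of the 6 genes.

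Other genes of mitochondrial translation were read in the same fit, where 15.6% of all genes were lower and 14.7% higher. Of the 4 tested mitoribosome proteins with other symbols, DAP3 (log2 -0.59, adjusted p = 0.000646) and PTCD3 (log2 -0.68, adjusted p = 0.000715), both small subunit components, were lower and 0 were higher. Of 15 genes listed as mitochondrial translation factors, 7 were lower and 1 was higher. The list also holds LRPPRC and SLIRP, which are not translation factors in the strict sense and are both among the lower genes. The elongation factor genes GFM1 and GFM2, the second of which acts in ribosome recycling, differed by -0.52 and -0.66 on the log2 scale, and LRPPRC and SLIRP, whose proteins form a complex that stabilises mitochondrial messenger RNA, by -0.32 and -0.48. TUFM, the mitochondrial elongation factor Tu, was the gene that was higher, at 209.2 ± 5.79 CPM in siSFSWAP and 168.5 ± 7.24 CPM in siNT (log2 0.31, adjusted p = 0.0102). Of 20 mitoribosome assembly genes, 3 were lower and 1 higher.

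The proteins that mitoribosomes serve and their cytosolic counterparts had other counts. Of 74 respiratory chain and ATP synthase genes, 12 were lower (16.2%) and 6 higher (8.11%), with a median log2 difference of -0.05. Over all genes 15.6% were lower and 14.7% higher, so the share of lower genes in this list was near that of all genes. Of 80 cytosolic ribosomal protein genes, 1 was lower and 30 were higher, with a median of 0.14. The difference between the mitochondrial and the cytosolic list was not tested. For retained introns the cytosolic genes had 2 of 232 called lower and 0 higher, and for skipped exon rows 1 of 631 lower and 0 higher. The members had 1 of 39 introns called lower, and 6 of 274 exon rows lower and 4 higher. Over all tested introns 1.61% were called lower and 0.148% higher, and over all tested exon rows 0.655% lower and 1.44% higher.

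**Figure D5:**
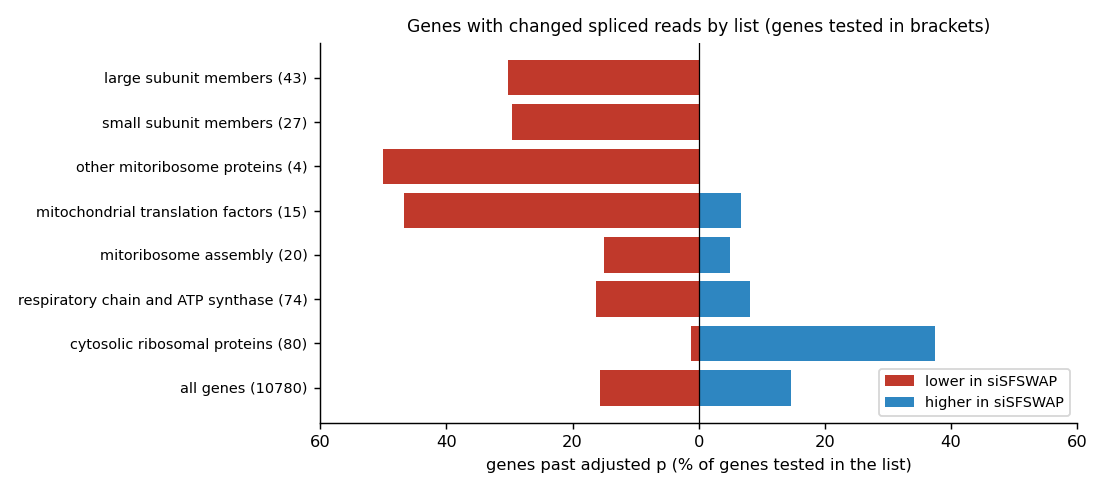
Share of the tested genes of each list whose spliced reads were lower (left of 0) or higher (right of 0) in siSFSWAP at an adjusted p of at most 0.05, with the number of tested genes in brackets. The MRPL and MRPS lists have 30.2% and 29.6% lower and 0 higher, against 15.6% lower and 14.7% higher over all genes.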

How the data were processed

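RNA junction reads of 3 siSFSWAP and 3 siNT samples were analysed. Per the submitters' notes the authors used cutadapt 1.9.1 for trimming and STAR 2.7 for alignment (GRCh38). Events came from rMATS on junction reads only, and the authors deposited 1 table of retained introns and 1 of skipped exons. The values used are other than a single number per cell: each deposited cell lists whole-number inclusion or skipping counts of 3 libraries, with no normalisation, and the effective lengths of both forms are given in nucleotides. The deposited p-value, FDR and inclusion difference columns hold the authors' comparison and were not used, nor were 4 columns of per-sample values (inclusion levels). The tables number the groups. That the first is siNT was inferred from the stated definition of the difference (siNT minus siSFSWAP), and SFSWAP reads served as the check. Lists carry no replicate numbers, so libraries are named a, b and c by position.

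Inclusion was computed from counts divided by effective lengths. Tested rows had on average 20 or more reads in each library, at least 5 reads of each form in all and reads in at least 2 libraries per group. The two-sided quasi-binomial F test used dispersions moderated with limma 3.58.1 (R 4.3.3) and floored at 1, with Benjamini-Hochberg adjustment per table. Calls were made at an adjusted p up to 0.05 with inclusion changed by 20 percentage points or more. Spliced reads per gene were tested with limma-trend on log2(CPM + 0.5). Both tests were run on simulated data with a fixed dispersion and no outlying library. The introns of MRPS18A and MRPL4 had larger dispersions (3.66 and 6.08), and siNT library a stood apart. The simulation therefore cannot show how the tests behave in such data. P values set each difference against the spread among these samples, moderated across all tested rows or genes. Reads without molecular identifiers are not independent molecules.

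Members, gene lists and the rule for named events were chosen with earlier results of these data known, among them the MRPS18C exon. Named were all called events and genes, events past the adjusted p, up to 8 non-overlapping events per table and direction with at least 50 reads, and the 5 largest gene differences each way. Sequence and annotation came from GRCh38 and GENCODE release 44, and 98.1% of tested introns had GT and AG ends there. The alternatives tried were other read minimums, change thresholds, tests and scalings, a single row per gene, and leaving out each library.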

Additional observations from a re-analysis of the deposited data

How the results depend on the processing

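All named events and genes kept their direction under every setting run, which was largely fixed in advance. Another read minimum, change threshold, test or dispersion leaves an event's inclusion difference as it was. Groups that do not overlap keep their sign when a library is left out, and most named events and genes had such groups. For retained introns the 1 member call became 3 with a change threshold of 10 points, where 2.44% of all introns were called lower. It became 0 with limma on log2 odds, where 8 members and 1671 of all introns had an unadjusted p under 0.05 and no intron was called. When a library was left out, the member calls ranged from 0 to 3 and the share of all introns called lower from 0.142% to 5.25%. For skipped exons the 10 member calls became 2 with limma on log2 odds, where 0.195% of all rows were called lower and 0.368% higher. With the raw share of inclusion reads they became 4, where 0.464% of all rows were lower and 1.02% higher. They ranged from 5 to 10 when a library was left out, where 0.297% to 0.878% of all rows were lower and 0.372% to 3.75% higher. For spliced reads per gene the 21 calls ranged from 7 to 30 when a library was left out, the 30 being 28 lower and 2 higher. Over these fits 8.22% to 24.4% of all genes were lower and 8.31% to 23.2% higher. Limma-voom, chosen after seeing the data, gave 19, all lower, where 12.9% of all genes were lower and 12.6% higher. Over named events and genes, 111 of 370 fits without a library and 32 of 370 other fits lost the adjusted p, and 5 and 1 gained it. Both totals include events and genes that had not passed and so could not lose it. The other fits also include the lower change threshold and the raw share, which keep the p of the main fit. The totals are therefore no measure of how stable the passing results were. The cause of these losses and gains was not tested. No paired analysis was possible because the deposited lists do not say which position holds which replicate, although the labels number the replicates of both groups and the study describes replicates as cells passaged at different times. The planned edgeR and DESeq2 fits were not run, since the deposited cells are lists. Depth limits rows with few skipping reads, as in MRPL53 and MRPL43, where a few reads set the inclusion.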
